A study of Mus musculus with 12 samples.

Results

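F-box proteins are the part of a large class of ubiquitin ligases that picks out the substrate, and the mouse oocyte transcribes many of them. The genes described here are those whose symbols in the deposited table start with Fbxo, Fbxl or Fbxw followed by a digit. Fbxo5 and Fbxo43, whose products inhibit the anaphase-promoting complex, are not part of the set. The rule, which uses symbols and no measured value, found 76 of the 24254 genes in the table. Of these, 35 were Fbxo, 19 Fbxl and 22 Fbxw genes, and 13 of the Fbxw genes lie side by side on chromosome 9. Fbxl12os is an opposite-strand RNA of the Fbxl12 locus whose symbol meets the rule and is no F-box protein gene.

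An F-box protein binds SKP1 through its F-box, and SKP1 ties it to the scaffold CUL1 and a RING protein in the SCF ligase, which adds ubiquitin to the bound substrate. The family is named by what follows the F-box: WD40 repeats in FBXW, leucine-rich repeats in FBXL and other or no known domains in FBXO proteins. In oocytes, SCF ligases and their substrate receptors are known for controlling arrest and resumption of meiosis and the turnover of maternal proteins.

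All libraries came from fully grown oocytes at the germinal vesicle stage of C57BL/6 mice aged 3 weeks that had been given 5 IU of the gonadotropin PMSG for 46 h. Every group carried a gene trap in Marf1, which encodes a ribonuclease that oocytes need for meiosis, and no group without the trap enters these comparisons. GT oocytes had the trap alone. GTWT oocytes carried the trap and received wild type MARF1 mRNA by microinjection. GTD272 oocytes likewise received an mRNA in which D272, an aspartate of MARF1's catalytic NYN domain, was mutated. Both injected groups were cultured for 48 h with milrinone, which keeps oocytes from resuming meiosis. Each group had 4 libraries of 80 oocytes, numbered here as in the labels. The labels do not say whether GT oocytes were cultured or injected with another RNA, so in a comparison with GT the injection, the culture and MARF1 cannot be told apart. Nor is it stated that the 4 libraries are independent animals or cultures, and every p-value therefore reflects library spread that may be technical only.

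Relative depth, read from the steps between low values, was 55.8% to 100% of the deepest library, and 11167 to 11364 genes reached 1 FPKM (a fragment count that the authors scaled to transcript length and library size). Marf1 itself read 1.27 to 1.83 FPKM in GT, 7.99 to 9.73 in GTD272 and 13.5 to 24.1 in GTWT, and reads of the injected mRNA and of the trapped gene cannot be told apart. All 11 oocyte markers checked were above 1 FPKM on average. Their sum was 8490 to 8670 FPKM in GT, below all libraries of GTD272 (8723 to 9269) and GTWT (8687 to 9055). In both injected groups 7 of the 11, among them Zp1, Zp3 and Gdf9, had means above GT, and 3, Bmp15, Oosp1 and Dazl, had means below it. Of 11 granulosa and cumulus markers 4 were, led by Nr5a2 at 112 FPKM and Kitl at 13.3, while Foxl2, Fshr and Amh stayed under 1 in every library. The summed granulosa markers read 141.6 to 150.2 FPKM in GT, 126.6 to 136.3 in GTD272 and 119.1 to 129.0 in GTWT. Nr5a2 made up most of this sum, with means of 124.6, 109.4 and 103.2, and Kitl was also lower in both injected groups. Cyp19a1 (4.87, 5.04 and 6.67) and Inhba (1.13, 1.37 and 1.26) were higher there, so the list did not move as a whole. The part of either marker list in the results below was not tested. Of 7 theca and stroma markers 3, and of 7 blood markers 5, were listed at 0 in every library. On each of these lists 1 marker averaged at least 1 FPKM. Pdgfra of the theca and stroma list was at 1.23 and reached 1 FPKM in 10 libraries. Pecam1 of the blood list was at 10.5 and reached it in all 12. In RNA pooled from 80 oocytes, fewer oocytes with a transcript and less of it per oocyte cannot be told apart.

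Transcripts of most F-box genes were present. Mean FPKM over the 12 libraries was at least 100 for 10 of the 76 genes, 50 to 100 for 16, 10 to 50 for 20, 1 to 10 for 18 and under 1 for 12. FPKM is scaled to transcript length, which allows a rough comparison of levels between genes. The annotation behind the lengths is not given. Levels are less certain for genes that share a locus or a near-identical sequence, as described below. Of the 10 genes at 100 FPKM or more, 7 belong to the chromosome 9 cluster, and the other 3 are Fbxo34, Fbxo33 and Fbxo30. Fbxo34, which is known to act in the resumption of meiosis in mouse oocytes, was the highest, at rank 106 of all genes in the table. It read 392.7, 401.9, 381.2 and 384.6 FPKM in GT, 421.9, 402.3, 420.8 and 386.3 in GTD272 and 407.9, 404.9, 405.0 and 404.7 in GTWT. Its GTWT libraries lay within 4 FPKM of each other and all above the GT libraries, but the difference of 0.06 on the log2(FPKM + 1) scale did not pass the limma test (95% interval -0.02 to 0.13, adjusted p = 0.318, and 0.0325 with quantile normalization).

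**Figure D1:**
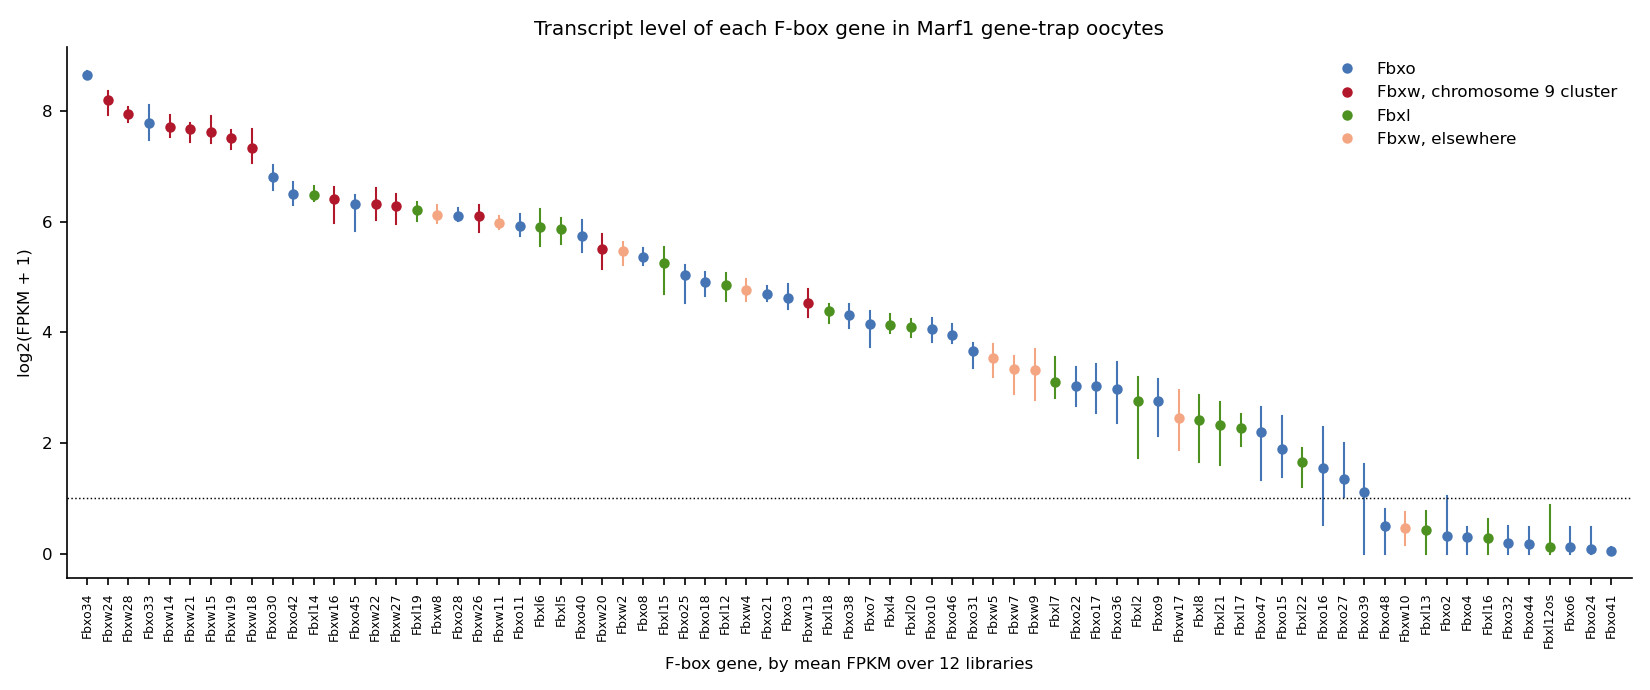
Transcript level of 75 of the 76 F-box genes, ordered by mean FPKM over 12 libraries. Points are log2 of that mean plus 1, lines span the lowest to the highest library, the dotted line marks 1 FPKM, and 7 of the 10 genes at 100 FPKM or more are red cluster copies.

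After the cluster copies, the genes between 50 and 100 FPKM included Fbxo42 at 89.6, Fbxl14 at 89.1, Fbxo45 at 78.7, Fbxl19 at 73.0, Fbxw8, the partner of CUL7, at 68.7, Fbxo28 at 67.9 and Fbxw11, the beta-TrCP paralog that sends EMI1 and beta-catenin to degradation, at 62.2. Fbxl6 was at 59.2. Between 10 and 50 FPKM stood Fbxw2, Fbxo8, Fbxo18, Fbxl12, Fbxw4, Fbxo21, Fbxo3, Fbxl18, Fbxo38, Fbxo7, Fbxl4, Fbxl20, Fbxo10, Fbxo46, Fbxo31 and Fbxw5, beside 4 genes described below. Fbxw7, the receptor for cyclin E and MYC, was at 9.18 FPKM, and Fbxw9, Fbxl7, Fbxo22, Fbxo17, Fbxo36, Fbxl2, Fbxo9, Fbxl8, Fbxl21, Fbxl17, Fbxo47, Fbxo15, Fbxl22, Fbxo16, Fbxo27 and Fbxo39 ranged down from 9.05 to 1.16. The 12 genes under 1 FPKM were Fbxo48, Fbxw10, Fbxl13, Fbxo2, Fbxo4, Fbxl16, Fbxo32, Fbxo44, Fbxl12os, Fbxo6, Fbxo24 and Fbxo41, the highest of them Fbxo48 at 0.410. Fbxo32 encodes atrogin-1 of wasting muscle. These 12 did not reach 1 FPKM in at least 4 libraries and were not tested, which left 64 tested genes. For 16 of the 76 genes the table's locus is shared with some other gene, such as Fbxl14 with Wnt5b and Fbxl12 with Ubl5. Overlap of their exons was not measured and any use of strand is not given, so the split of reads between them is uncertain.

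The chromosome 9 cluster runs from Fbxw21 to Fbxw27, chr9:109139447-109790670 in GENCODE's annotation of GRCm38, and all 13 copies in the table lie on the minus strand. In order of position they are Fbxw21, Fbxw13, Fbxw20, Fbxw14, Fbxw28, Fbxw22, Fbxw16, Fbxw19, Fbxw15, Fbxw24, Fbxw18, Fbxw26 and Fbxw27. The annotation also places a pseudogene, Fbxw23, and the protein-coding Fbxw25 in this run. Neither is among the 76 genes, and Fbxw25 entered by its coding sequence alone, which matched the 13 copies at 82.0% to 89.9% of aligned bases. Coding sequences of the 13 copies matched each other at 79.1% to 99.1% of aligned bases, with a median of 83.6% over 78 pairs. Fbxw17 on chromosome 13 matched them at 52.5% to 54.1%, and Fbxw8 on chromosome 5 at 43.1% to 44.6%. Fbxw14 and Fbxw28 were the closest pair, at 99.1%, and only 55.2% and 53.8% of the 100-base stretches of their transcripts were unique to each. The authors' counting could have divided reads between this pair, so the separate values of Fbxw14 and Fbxw28 are uncertain. The other copies had 91.7% to 100% of such stretches to themselves. Fbxw16 shared 8.3% with the predicted gene Gm42494, and Fbxw15 shared 5.01% with Gm42756.

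The copies resembled each other before their starts as well. RefSeq's promoter table for GRCm38.p6, which gives 250 bases before and 50 after a gene's start, held windows for 56 of the 76 genes and for 10 of the 13 copies, those other than Fbxw13, Fbxw22 and Fbxw27. These 10 windows matched at 83.4% to 97.3% of aligned bases, with a median of 90.8% over 45 pairs. The 120 bases before the start are printed 5′ to 3′ for 6 copies, chosen because 5 of them carry a call below and Fbxw24 is the highest of the cluster. Capitals mark AAATCTTTGGCC and TTTAAAA.
Fbxw14, chr9:109287677-109287796, minus strand: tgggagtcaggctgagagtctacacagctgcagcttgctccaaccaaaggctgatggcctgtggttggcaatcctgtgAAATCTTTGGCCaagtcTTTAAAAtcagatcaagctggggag
Fbxw28, chr9:109339660-109339779, minus strand: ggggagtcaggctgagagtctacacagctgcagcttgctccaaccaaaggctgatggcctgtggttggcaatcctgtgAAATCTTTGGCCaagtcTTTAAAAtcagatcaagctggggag
Fbxw16, chr9:109449141-109449260, minus strand: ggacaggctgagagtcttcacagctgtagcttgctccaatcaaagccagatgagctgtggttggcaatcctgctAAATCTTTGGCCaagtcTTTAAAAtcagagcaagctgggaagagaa
Fbxw15, chr9:109568263-109568382, minus strand: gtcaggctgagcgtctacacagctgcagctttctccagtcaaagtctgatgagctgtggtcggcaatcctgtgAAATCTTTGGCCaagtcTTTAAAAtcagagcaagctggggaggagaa
Fbxw24, chr9:109626060-109626179, minus strand: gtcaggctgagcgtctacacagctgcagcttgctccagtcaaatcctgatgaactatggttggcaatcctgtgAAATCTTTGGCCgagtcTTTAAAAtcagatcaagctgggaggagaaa
Fbxw20, chr9:109234755-109234874, minus strand: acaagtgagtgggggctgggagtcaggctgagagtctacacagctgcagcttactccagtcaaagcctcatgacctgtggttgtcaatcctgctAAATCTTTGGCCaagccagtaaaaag
AAATCTTTGGCC, one of the longest runs common to all 10 copies, stood in all of their windows and in 0 of 46 windows of the other F-box genes, with both strands searched. Among all 32851 windows 13 (0.0396%) held it. The holders were the 10 copies, of which Fbxw21 has 2 windows, and Gm40505 and Olfr829. The run GACTTAGGCCAC, which lies further downstream, was likewise picked as common to all 10 copies. By that choice it was in 10 of 10 copies, and it was in 0 of 46 other F-box windows and 0.0365% of all windows. TTTAAAA, a run of A and T letters between these runs, was in 9 of 10 copies, all but Fbxw20, in 6 of 46 other F-box windows and in 8.74% of all windows. CAGCTG, an E-box, was in 10 of 10 copies, 9 of 46 other F-box windows and 16.3% of all windows. It is also a case of CANNTG, which was in 10 of 10, 32 of 46 and 72.3%. TATAAA was in 0 of 10 copies, 0 of 46 other F-box windows and 13.6% of all windows. The homeobox cores TAATTA and TAATTG were in 0 of 10 copies. They were in 1 and 3 of 46 other F-box windows and in 5.29% and 8.0% of all windows. GGGCGG, a GC box, was in 1 of 10 copies, 32 of 46 other F-box windows and 35.7% of all windows. CAGCTG also lies within CACAGCTG, another run common to all 10 copies. The 10 windows resemble each other, so they are not independent cases. These matches describe the letters in the windows and were not tested as binding sites.

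The genes nearest the cluster on both sides were lower than its copies. Mean FPKM over the 12 libraries was 203.1 for Fbxw21 at one end and 76.8 for Fbxw27 at the other. The genes next to Fbxw21, Plxnb1 and Ccdc51, were at 5.67 and 15.3, and Spink8 and 3000002C10Rik beyond Fbxw27 were listed at 0 and at 0.145. Further out, Tma7 beyond Ccdc51 was at 44.9 and Cdc25a, a phosphatase gene on the other side, at 60.6, both above the lowest copies Fbxw13 (22.2) and Fbxw20 (44.6). Within the cluster, Fbxw24 was highest in every group, at 268.6 ± 18.1 FPKM (SD, n = 4) for GT, 312.6 ± 15.8 for GTD272 and 301.9 ± 18.3 for GTWT. Its libraries did not overlap those of Fbxw28, the next copy down, in any group. Fbxw14, Fbxw21, Fbxw15 and Fbxw19 followed at 173.3 to 227.7 in all 3 groups, and their order differed between groups. Neighbours in each group's own order had overlapping libraries. Fbxw18 closed the upper range, and its libraries lay above those of Fbxw16 in each group. Fbxw16, Fbxw22, Fbxw27 and Fbxw26 lay between 59.6 and 93.4, Fbxw20 between 39.3 and 50.4, and Fbxw13 was lowest at 19.8 to 24.3. The low copies Fbxw13 and Fbxw20 stood between the high copies Fbxw21 and Fbxw14.

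**Figure D2:**
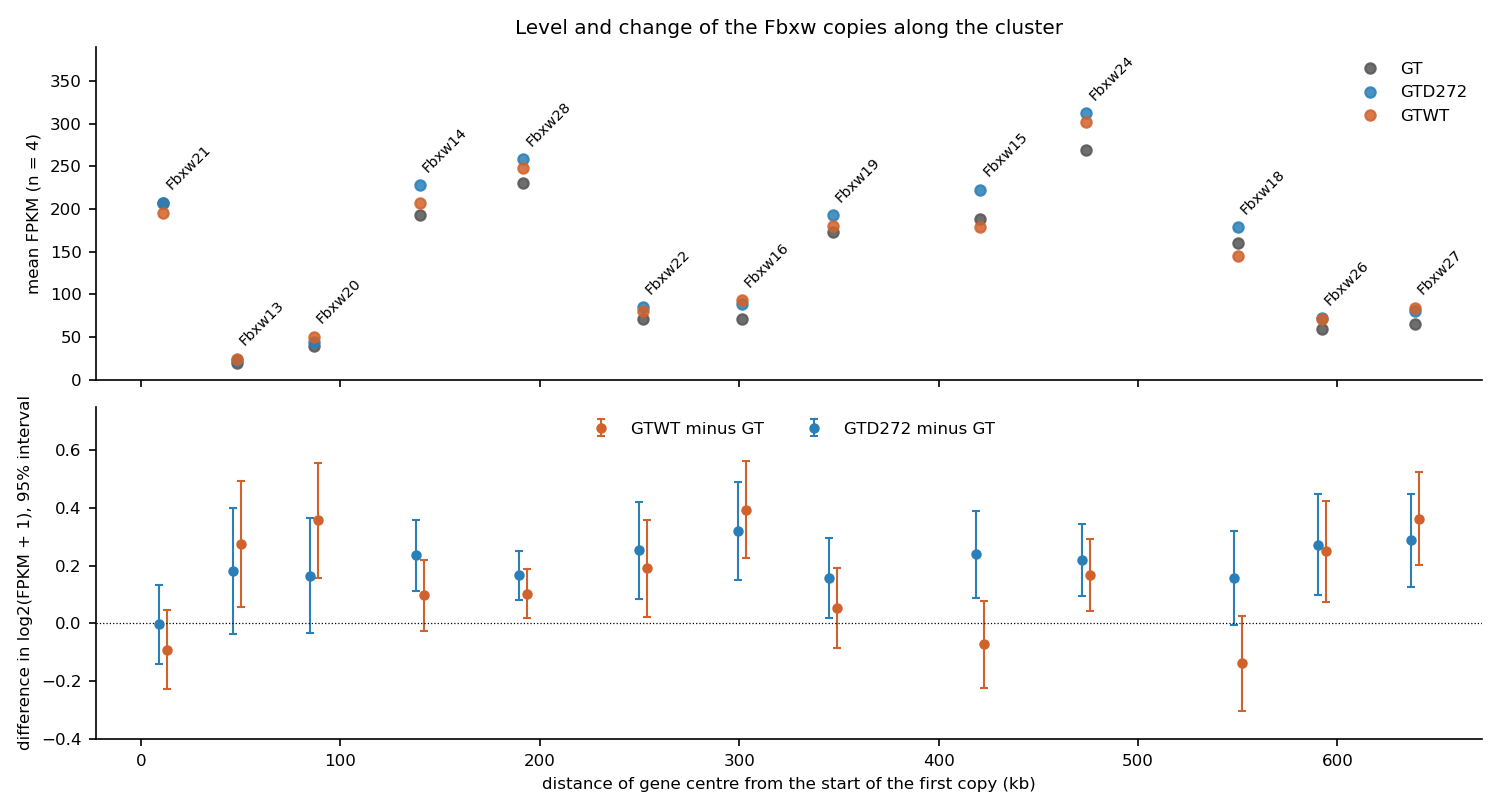
The 13 Fbxw copies by distance along the cluster in kilobases: above, mean FPKM of each group (n = 4), and below, the difference in log2(FPKM + 1) from GT with its 95% interval in the limma fit. In GTD272 minus GT the estimate was above 0 for 12 of 13 copies, against 48.7% of all genes tested. In GTWT minus GT it was above 0 for 10 of 13, against 48.3%.

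The cluster made up 43.9% to 50.2% of the FPKM of all 76 genes. The summed cluster read 1689 to 1804 FPKM in GT, 1918 to 2066 in GTD272 and 1759 to 1978 in GTWT. The GTD272 sums were all above the GT sums, and the GTWT sums overlapped both. The other 63 genes summed to 2094 to 2158 in GT, 2011 to 2051 in GTD272 and 1969 to 2060 in GTWT, so their GT sums lay above those of both injected groups. FPKM of all genes other than small RNAs also summed lower in GTWT, at 400822 to 405113 against 411872 to 415775 in GT and 409032 to 417166 in GTD272. The part of this shift in single genes was not tested.

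GTWT was set against GT to find transcripts that differ once wild type MARF1 is supplied. Here 3 lower-level cluster copies rose, as did Fbxo40 and Fbxw17, and 7 F-box genes outside the cluster fell. Of the 64 tested genes 5 rose, 7 fell and 52 did not pass, by limma at an adjusted p under 0.05. Across all 11687 genes tested 6.14% rose and 10.5% fell, 16.6% in all, so the share among F-box genes was near the background. The median difference was 0.02 on the log2 scale for the tested F-box genes, 0.17 for the 13 cluster copies and -0.01 for all genes tested. In the authors' deposited table, 7 of the 64 were higher and 7 lower at q under 0.05, against 8.03% and 10.5% of all genes tested. Rescaling the libraries moved the share of lower calls among all genes from 63.0% to 49.8% with quantile normalization and to 53.4% with a common median. The same scalings raised the count of higher F-box genes from 5 to 11 and 10, while the count of lower genes stayed within 1.5 times of 7. Fbxl5 lost its lower call with both scalings (adjusted p of 0.0866 and 0.0622 in limma). Fbxo25 lost its own with quantile normalization (0.0519).

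Fbxw16 moved most within the cluster. It read 67.2, 78.9, 62.4 and 75.6 FPKM in GT and 85.4, 98.0, 95.4 and 94.5 in GTWT, and every GTWT library was above every GT library. The rise was 0.39 on the log2 scale (SE 0.08, adjusted p = 0.00458 in limma). Fbxw27 read 70.9, 61.8, 68.6 and 60.9 in GT and 80.8, 84.2, 83.2 and 89.4 in GTWT. These ranges did not overlap either, and the rise was 0.36 (SE 0.07, adjusted p = 0.00575 in limma). Fbxw20 read 43.2, 43.5, 34.6 and 35.7 in GT and 50.8, 53.8, 44.7 and 52.2 in GTWT. Its groups were also apart, with a rise of 0.36 (SE 0.09, adjusted p = 0.0185 in limma), but the call was lost without GT library 3 (0.0583), GT library 4 (0.0526) or GTWT library 2 (0.0546). The calls of Fbxw16 and Fbxw27 held under every alternative run. Without GTWT library 3, 5 copies were higher in place of 3.

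The other 10 copies did not pass. Fbxw26 came nearest, with 66.7, 59.1, 57.3 and 55.1 FPKM in GT against 75.2, 78.3, 59.96 and 71.3 in GTWT. These libraries overlapped, with a difference of 0.25 (95% interval 0.07 to 0.42, adjusted p = 0.0506 in limma), and it was called higher in the authors' deposited table (q = 0.0178). Fbxw13 differed by 0.27 (0.06 to 0.49), Fbxw22 by 0.19 (0.02 to 0.36), Fbxw24 by 0.17 (0.04 to 0.29), Fbxw28 by 0.10 (0.02 to 0.19), Fbxw14 by 0.10 (-0.03 to 0.22) and Fbxw19 by 0.05 (-0.08 to 0.19). Fbxw21 differed by -0.09 (-0.23 to 0.05), Fbxw15 by -0.07 (-0.22 to 0.08) and Fbxw18 by -0.14 (-0.30 to 0.02). Fbxw26 passed without GT library 1 (0.0306) or GTWT library 3 (0.00721) and at a mean FPKM of at least 5 (0.0415), Fbxw24 without GTWT library 3 (0.0447) and Fbxw13 without GTWT library 1 (0.0203). With quantile normalization or a common median, Fbxw24, Fbxw26 and Fbxw28 passed as well (adjusted p of 0.0101 to 0.0419 in limma). The 6 copies under 100 FPKM had estimates of 0.19 to 0.39 and the 7 above 100 FPKM had -0.14 to 0.17, a grouping seen after the values and given as a description. Libraries of the groups did not overlap, GTWT being higher, for 5 of 13 copies, against 9.32% of all genes tested.

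**Figure D3:**
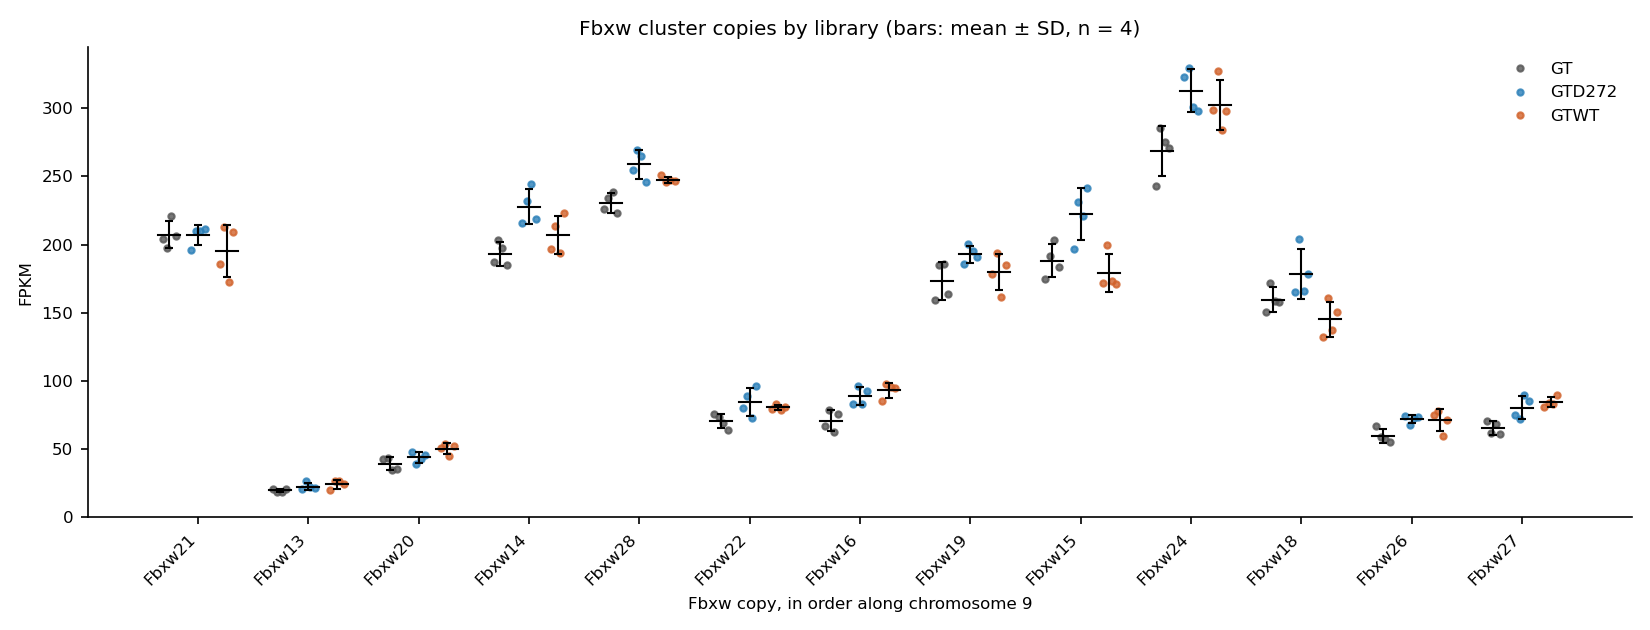
FPKM of the 13 Fbxw copies in each of the 12 libraries, in order along chromosome 9, with points for libraries and bars for mean ± SD (n = 4). Fbxw16 and Fbxw27 have every GTWT library above every GT library, and Fbxw24 is the highest copy in each group.

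Outside the cluster, Fbxo33 and Fbxo30 were the most abundant genes that fell. Fbxo33 (chr12:59200655-59221961), whose human counterpart is known to bind the RNA-binding protein YB-1, read 274.1, 258.8, 247.7 and 249.2 FPKM in GT. In GTWT it read 192.7, 177.2, 217.9 and 190.3, all below GT, a fall of -0.41 (SE 0.06, adjusted p = 0.000903 in limma). Fbxo30 (chr10:11281330-11305750), known as MUSA1 in muscle wasting, read 128.8, 127.3, 127.5 and 120.1 in GT and 101.2, 106.7, 108.2 and 100.6 in GTWT. The groups were apart and the change was -0.27 (SE 0.05, adjusted p = 0.00331 in limma). Both calls held under every alternative run.

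Fbxl15 (chr19:46328184-46330446), the receptor that degrades the BMP pathway ligase SMURF1 in human cells, read 43.8, 42.8, 35.7 and 42.2 FPKM in GT and 25.97, 24.9, 33.2 and 34.0 in GTWT. Every GTWT library was below every GT library, with a change of -0.47 (SE 0.11, adjusted p = 0.00866 in limma). Its locus in the table also holds Cuedc2, so the split of reads between them is uncertain. Fbxo11 (chr17:87990859-88066045), the receptor for BCL6 in human B cells, read 67.9, 65.2, 69.2 and 64.7 in GT and 58.1, 53.8, 58.1 and 53.8 in GTWT. The groups did not overlap and the change was -0.25 (SE 0.06, adjusted p = 0.0125 in limma), while the authors' deposited table did not call it (q = 0.203). Fbxo11 shares its locus in the table with Msh6. The calls of Fbxl15 and Fbxo11 in this comparison held under every alternative run other than the authors' q for Fbxo11.

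Fbxo25 and Fbxl5 also fell but were called less firmly. Fbxo25 (chr8:13907736-13942875), a relative of the atrogin-1 gene, read 35.4, 33.8, 35.9 and 34.6 in GT and 32.0, 22.1, 27.3 and 28.7 in GTWT, and fell by 0.35 (adjusted p = 0.0333 in limma). Its groups were apart, but the call was lost without any 1 of the 4 GT libraries or of GTWT libraries 2, 3 and 4 (0.0505 to 0.0822), with quantile normalization (0.0519) and with no filter on low values (0.0554). Fbxl5 (chr5:43744618-43782149), the iron sensor that degrades IRP2, read 63.4, 66.3, 65.5 and 59.9 in GT and 47.5, 51.5, 61.6 and 49.2 in GTWT. Here the groups overlapped through GTWT library 3. Fbxl5 fell by 0.28 (adjusted p = 0.0432 in limma), and the call was lost without any 1 of the 4 GT libraries, GTD272 library 2 or GTWT libraries 1, 2 and 4 (0.0507 to 0.114), with either rescaling (0.0866 and 0.0622) and with no filter (0.0715). The count of falling F-box genes was 4 without GT library 1, GTWT library 2 or GTWT library 4.

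Fbxo40 (chr16:36963461-36990530), known in muscle for degrading IRS1, rose. It read 47.8, 42.8, 43.4 and 44.8 FPKM in GT and 61.2, 56.1, 59.0 and 64.6 in GTWT, with every GTWT library higher. The rise was 0.42 (SE 0.06, adjusted p = 0.000444 in limma) and held under every alternative run. Fbxw17 (chr13:50417835-50433781), at a much lower level, read 4.38, 4.10, 2.67 and 3.69 in GT and 6.19, 4.65, 5.01 and 6.77 in GTWT. The groups were apart and the rise was 0.50 (SE 0.15, adjusted p = 0.0336 in limma), lost without GT library 3 (0.0946), GT library 4 (0.0622), GTWT library 1 (0.0834) or GTWT library 4 (0.0962), with no filter (0.0629) and with only the 2 groups compared (0.0580). The count of rising F-box genes was 3 without GT library 3 or GT library 4.

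**Figure D4:**
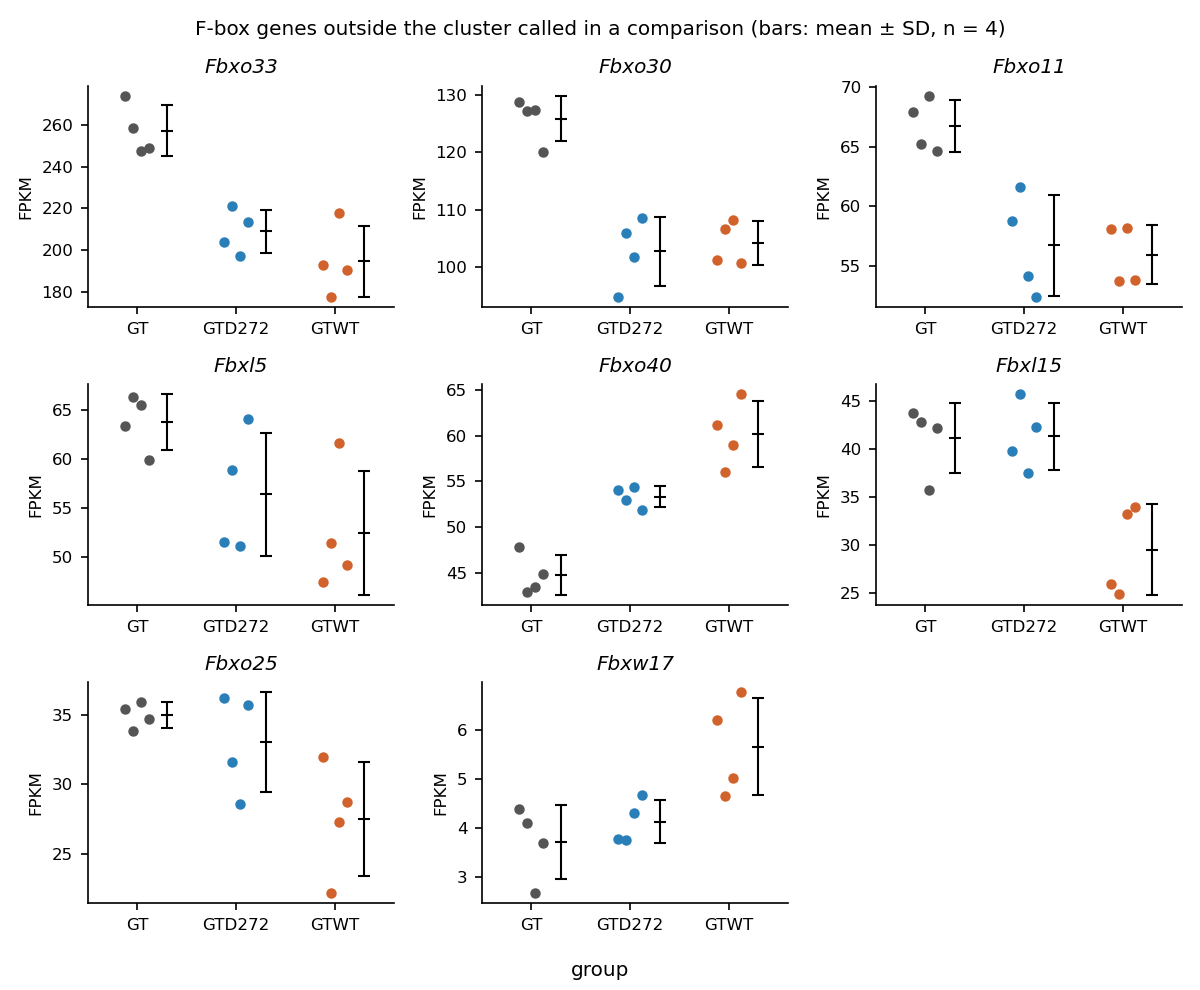
FPKM in each library of 8 F-box genes outside the cluster that passed the test in at least 1 comparison, 1 panel per gene with its own axis that need not start at 0. Points are libraries and bars are mean ± SD (n = 4), and Fbxo33 and Fbxo30 have all 4 GT libraries above both injected groups.

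The comparison of GTD272 with GT carries the same injection and culture as the last one, but with MARF1 mutated at D272. Again 3 cluster copies and Fbxo40 rose, while Fbxo33 and Fbxo30 were among the genes that fell. The copies include the near-identical Fbxw14 and Fbxw28, whose separate values are uncertain, so these may not be separate rises. Both comparisons use the same GT libraries, so likeness between them is no independent evidence. Of the 64 tested genes 4 rose, 3 fell and 57 did not pass in limma, against 1.41% higher, 1.54% lower and 2.95% in all among the 11687 genes tested. The authors' deposited table had 7 higher and 3 lower, against 2.73% and 3.59%. Medians were 0.01 for the tested F-box genes, 0.22 for the 13 copies and -0.01 for all genes tested.

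Fbxw16, Fbxw14 and Fbxw28 were the copies that rose. Fbxw16 read 82.9, 96.0, 83.3 and 92.7 FPKM in GTD272, above every GT library, a difference of 0.32 (SE 0.08, adjusted p = 0.0447 in limma). Fbxw14 read 186.9, 203.5, 197.3 and 185.1 in GT and 216.1, 231.8, 244.2 and 218.9 in GTD272, a rise of 0.24 (SE 0.06, adjusted p = 0.0422 in limma). Fbxw28, its near-identical partner, read 226.1, 233.9, 238.5 and 223.1 in GT and 254.5, 269.4, 265.0 and 245.7 in GTD272, a rise of 0.17 (SE 0.04, adjusted p = 0.0401 in limma). Neither gene's groups overlapped, and the authors' deposited table did not call Fbxw28 (q = 0.139).

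All 3 calls stood close to the threshold. Without any 1 GT library the adjusted p was 0.0547 to 0.113 for Fbxw14 and 0.0581 to 0.108 for Fbxw28. Without any 1 GTD272 library it was 0.0550 to 0.114 for Fbxw14, and without GTD272 library 1, 2 or 3 it was 0.0736 to 0.107 for Fbxw28. Fbxw28 was also lost without GTWT library 1 (0.0515) or 4 (0.0512). The call of Fbxw16 was lost without GT libraries 1, 3 or 4, any GTD272 library, or GTWT libraries 3 or 4 (0.0523 to 0.120). With no filter on low values all 3 calls were lost, at 0.0720 for Fbxw14, 0.0591 for Fbxw28 and 0.0753 for Fbxw16. Quantile normalization ended that of Fbxw14 (0.0578), and a fit of only the 2 groups compared those of Fbxw28 and Fbxw16 (both 0.0653). The number of rising copies was 0 without GT library 1, 3 or 4 or GTD272 library 1 or 3, and 1 without GT library 2, GTD272 library 2 or 4 or GTWT library 4. Estimates in the cluster were above 0 for 12 of 13 copies, against 48.7% of all genes tested. Every GTD272 library was above every GT library for 7 of 13, against 5.37% of all genes tested. The copies share the same GT libraries and resemble each other in sequence, so they are not independent cases. The authors' deposited table called 6 copies higher.

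Among the copies that did not pass, Fbxw27 differed by 0.29 (95% interval 0.13 to 0.45, adjusted p = 0.0543 in limma) and Fbxw24 by 0.22 (0.09 to 0.34, adjusted p = 0.0581). Fbxw24 read 243.0, 285.3, 275.3 and 270.9 FPKM in GT and 322.9, 329.2, 300.6 and 297.8 in GTD272, with no overlap. Fbxw27 passed without GTD272 library 2 (0.0398), Fbxw24 without GTWT library 2 (0.0468) and Fbxw26 without GTWT library 3 (0.0420). At a mean FPKM of at least 5, Fbxw24 (0.0460) and Fbxw27 (0.0436) passed. Fbxw26 differed by 0.27 (0.10 to 0.45), Fbxw22 by 0.25 (0.08 to 0.42), Fbxw15 by 0.24 (0.09 to 0.39), Fbxw13 by 0.18 (-0.04 to 0.40), Fbxw20 by 0.17 (-0.03 to 0.36), Fbxw18 by 0.16 (-0.01 to 0.32) and Fbxw19 by 0.16 (0.02 to 0.29). Fbxw21, at the edge of the cluster, was the copy with an estimate at 0, -0.003 (-0.14 to 0.13). It read 204.3, 197.7, 220.8 and 206.2 in GT and 195.9, 209.6, 210.2 and 211.3 in GTD272. The groups overlapped, with GTD272 library 1 below every GT library.

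Outside the cluster Fbxo30 read 94.7, 105.9, 101.8 and 108.5 FPKM in GTD272, below every GT library, a change of -0.29 (SE 0.05, adjusted p = 0.00987 in limma). This call held under every alternative run. Fbxo33 read 204.0, 221.0, 197.3 and 213.7 and changed by -0.30 (SE 0.06, adjusted p = 0.0205 in limma). Its GTD272 libraries lay below all GT libraries. Fbxo33 lost its call without GT library 1 or 2 or GTD272 library 1 or 3 (0.0533 to 0.0737). The count of falling genes was 1 without GT library 1 or 2 or GTD272 library 1 or 3.

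Fbxo40 read 54.1, 53.0, 54.4 and 51.8 FPKM in GTD272, above every GT library and below every GTWT library. It rose by 0.25 (SE 0.06, adjusted p = 0.0362 in limma), a call lost without GT library 2, 3 or 4 or any GTD272 library (0.0516 to 0.0966). With it, the count of rising F-box genes was 0 without GT library 3 or 4 or GTD272 library 1 or 3, 1 without GT library 1 or 2 or GTD272 library 2 or 4, and 2 without GTWT library 4. Fbxo11 also had all GTD272 libraries below GT, at 58.8, 61.6, 54.2 and 52.4, but its difference of -0.23 (95% interval -0.36 to -0.10) did not pass (adjusted p = 0.0537 in limma, 0.0398 without GTD272 library 2 and 0.0420 at a mean FPKM of at least 5). Fbxl15 read 39.8, 45.7, 37.5 and 42.3 in GTD272, overlapping its GT libraries, with a difference of 0.01 (-0.22 to 0.24). Fbxl5 differed by -0.18 (-0.37 to 0.01), Fbxo25 by -0.09 (-0.30 to 0.13) and Fbxw17 by 0.13 (-0.18 to 0.45).

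**Figure D5:**
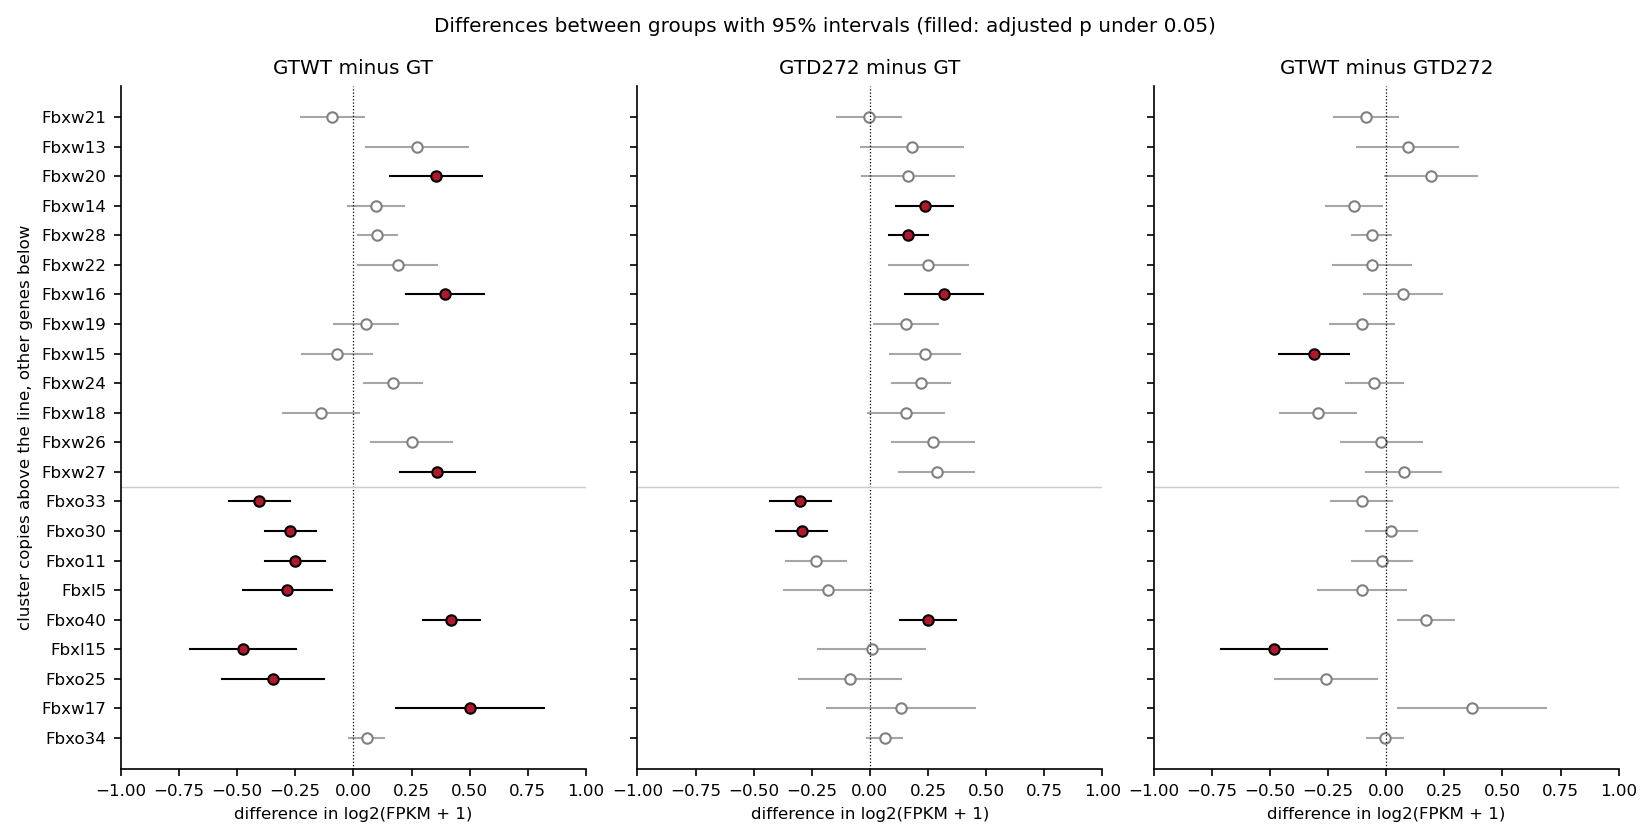
Differences in log2(FPKM + 1) between groups with 95% intervals for the 13 Fbxw copies, 8 other F-box genes that passed in a comparison and Fbxo34, in 1 panel per comparison, where filled points passed limma at adjusted p under 0.05. In GTWT minus GTD272 the filled points are Fbxl15 and Fbxw15.

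GTWT and GTD272 were both injected and cultured, so their comparison asks what the D272 mutation changes. Marf1 RNA was higher in every GTWT library (13.5 to 24.1 FPKM) than in any GTD272 library (7.99 to 9.73), so its amount and the mutation cannot be told apart. Here Fbxl15 and Fbxw15 were lower with wild type MARF1, and no F-box gene was higher. Of the 64 tested genes 0 rose, 2 fell and 62 did not pass in limma, against 0.625% higher, 1.84% lower and 2.46% in all among the 11687 tested. At an unadjusted p under 0.05 there were 13, near the 18.4% of all genes tested. The authors' deposited table had 0 higher and 3 lower, against 1.51% and 3.71% of all genes tested. Fbxl15 read 39.8, 45.7, 37.5 and 42.3 FPKM in GTD272 and 25.97, 24.9, 33.2 and 34.0 in GTWT. The GTWT libraries were all lower, by 0.48 on the log2 scale (SE 0.11, adjusted p = 0.0322 in limma). That call was lost without GTD272 library 1, 2 or 4 or GTWT library 1 or 2 (0.0611 to 0.0924), with no filter on low values (0.0618) and with only the 2 groups compared (0.0762).

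Fbxw15, whose product degrades the acetyltransferase HBO1 in mouse lung cells, read 174.9, 191.5, 203.3 and 183.2 FPKM in GT, 197.0, 231.5, 220.7 and 241.1 in GTD272 and 171.9, 199.6, 173.5 and 171.3 in GTWT. Its GTWT mean of 179.1 ± 13.7 (SD, n = 4) lay near the GT mean of 188.2 ± 12.1 and below the GTD272 mean of 222.6 ± 19.0. GTWT library 2 at 199.6 overlapped GTD272 library 1 at 197.0. The difference between the injected groups was -0.31 (SE 0.07, adjusted p = 0.0347 in limma). It was lost without GT library 2 or 4, GTD272 library 2, 3 or 4 or GTWT library 1, 3 or 4 (0.0514 to 0.0952), with either rescaling (0.0721 and 0.0559), with no filter (0.0698) and with only the 2 groups compared (0.0794).

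Fbxw18 had the same order of groups. It read 150.6, 171.9, 158.5 and 157.7 FPKM in GT, 165.2, 204.4, 166.3 and 178.3 in GTD272 and 132.4, 160.5, 137.4 and 150.6 in GTWT. All GTWT libraries were below all GTD272 libraries, with a difference of -0.30 (95% interval -0.46 to -0.13) that did not pass (adjusted p = 0.0587 in limma). Fbxw18 passed without GTWT library 2 (0.0478), at a mean FPKM of at least 5 (0.0472) and with the replicate number as a block (0.0121). The authors' deposited table called it lower (q = 0.0238). Without GTWT library 2, 2 copies fell in place of 1, and without GT library 2 or 4, GTD272 library 2, 3 or 4 or GTWT library 1, 3 or 4 the count was 0. The count of all falling F-box genes was 0 without GTD272 library 2 or 4 or GTWT library 1, and 1 without GT library 2 or 4, GTD272 library 1 or 3 or GTWT library 3 or 4.

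The other 11 copies differed between the injected groups by -0.14 to 0.19. The difference was -0.14 for Fbxw14 (95% interval -0.26 to -0.02), -0.10 for Fbxw19 (-0.24 to 0.03), -0.09 for Fbxw21 (-0.22 to 0.05), -0.06 for Fbxw28 (-0.15 to 0.02), -0.06 for Fbxw22 (-0.23 to 0.11), -0.05 for Fbxw24 (-0.18 to 0.07) and -0.02 for Fbxw26 (-0.20 to 0.15). Fbxw16, which rose in both comparisons with GT, differed by 0.07 (-0.09 to 0.24) and Fbxw27 by 0.07 (-0.09 to 0.23). Fbxw13 differed by 0.09 (-0.13 to 0.31) and Fbxw20 by 0.19 (-0.01 to 0.39). Of the genes that fell in both comparisons with GT, the difference was 0.02 for Fbxo30 (-0.09 to 0.13) and -0.11 for Fbxo33 (-0.24 to 0.03). Fbxo40 differed by 0.17 (0.05 to 0.29) with every GTWT library higher, and did not pass (adjusted p = 0.127 in limma). Fbxo25 differed by -0.26 (-0.48 to -0.04), Fbxl5 by -0.10 (-0.30 to 0.09), Fbxo11 by -0.02 (-0.15 to 0.11) and Fbxw17 by 0.37 (0.05 to 0.69).

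The 41 tested F-box genes that are in neither the cluster, the called set nor the top of the level list had differences of -0.37 to 0.49 in GTWT minus GT, -0.37 to 0.39 in GTD272 minus GT and -0.51 to 0.27 in GTWT minus GTD272. Their smallest adjusted p in limma was 0.0609, for Fbxo42 in GTWT minus GT, which read 84.1 FPKM in GT and 95.9 in GTWT on average. The authors' deposited table called Fbxo42 higher (q = 0.0417) and Fbxl7 lower (q = 0.0208) in that comparison.

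The other parts of the ligase were transcribed throughout. Mean FPKM over the 12 libraries was 1156 for Skp1a, the SKP1 gene, 121.1 for the scaffold gene Cul1, 15.9 for the RING gene Rbx1 and 129.2 for its paralog Rnf7. SCF core and regulator genes numbered 35, of which 34 were tested. In GTWT minus GT 1 rose, 3 fell and 30 did not pass, with a median of 0.02, a share that was not above the 16.6% of all genes tested. Cks1b, a cofactor of the F-box protein SKP2, fell from 170.9 ± 3.9 FPKM in GT (SD, n = 4) to 127.3 ± 17.2 in GTWT, by 0.43 (adjusted p = 0.00281 in limma). Rnf7 fell from 141.5 ± 6.2 to 111.5 ± 11.4, by 0.35 (adjusted p = 0.00956 in limma). Ube2d2a, a ubiquitin-conjugating enzyme gene, fell from 236.0 ± 14.5 to 204.5 ± 13.9, by 0.21 (adjusted p = 0.0218 in limma). Uba1, the ubiquitin-activating enzyme gene, rose from 18.01 ± 0.8 to 22.4 ± 0.7, by 0.30 (adjusted p = 0.00876 in limma). In GTD272 minus GT 0 of 34 passed in limma, with 6 at an unadjusted p under 0.05, against 19.0% of all genes tested. The authors' deposited table called 1 higher, against 2.73% of all genes tested. In GTWT minus GTD272 0 of 34 passed in limma, with 5 at an unadjusted p under 0.05, against 18.4% of all genes tested, and 0 in the authors' deposited table, and 1 passed without GTWT library 2 or 3.

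Of 8 F-box genes with other symbols, 5 were tested. In GTWT minus GT 1 of the 5 passed in limma, against 16.6% of all genes tested. Kdm2b, a histone demethylase with an F-box, rose from 67.3 ± 2.2 FPKM in GT to 81.2 ± 3.9 in GTWT (SD, n = 4), by 0.27 (adjusted p = 0.0235 in limma), and 0 passed without GT library 2 or 4 or GTWT library 2 or 4. Skp2, at 6.91 FPKM on average, differed by -0.37 in that comparison (adjusted p = 0.0759 in limma). Of 7 other cullin genes 5 were tested, and 1 of the 5 passed in GTWT minus GT, against the same 16.6%. Cul4b, the scaffold of another ligase class, fell from 58.2 ± 2.2 to 49.7 ± 4.8 FPKM, by 0.23 (adjusted p = 0.0332 in limma), with overlapping libraries. It did not pass with either rescaling, or without GT library 1, 2 or 3 or GTWT library 1, 2 or 4. In GTD272 minus GT the count of cullins was 0 in limma, and 1 without GTWT library 3. At an unadjusted p under 0.05 in limma there was 1, against 19.0% of all genes tested. The authors' deposited table called 1 lower, against 3.59% of all genes tested.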

How the data were processed

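The 12 libraries were grouped by their titles. NEBNext Ultra libraries were sequenced in pairs on an Illumina HiSeq, per the labels. The labels also name lysed ovaries and Smart-seq2 in 1 protocol, against oocytes and an RNeasy Micro kit in the design text. Per the submitters' processing notes, TopHat2 2.0.13 aligned the reads to mm10. FPKM was calculated and normalized by the authors in Cufflinks 2.2.1, and their deposited p-values and q-values are Cuffdiff's at its defaults, per the labels. The annotation and any use of strand are not given in the sources used here.

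The deposited header stood 1 column left of its values and was realigned. Genes were chosen by symbol, and all 76 F-box symbols were found in RefSeq. The members and the gene lists were chosen with earlier results of these data known. R 4.3.3 and limma 3.58.1 fitted log2(FPKM + 1), a scale that understates changes of low genes, with the variance modelled as a trend over level. Genes with at least 1 FPKM in at least 4 of 12 libraries (11687) entered 1 model, and p was adjusted over all of them by Benjamini-Hochberg. Since FPKM is not a count, no count model was used. A gene was called at an adjusted p under 0.05. Named with values were all cluster copies, every member called in a comparison, and the 8 of highest mean FPKM. Of these, 1 called member is counted but not reported by name here. Of the other lists, the called genes were named, and Skp2, Skp1a, Cul1, Rbx1, Fbxo42, Fbxl7 and the remaining members were given as levels or chosen after their values were seen.

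In simulated data, 100 genes were changed by 0.5 and 100 by 1 (log2), with independent normal noise. These are fewer than the 1940 genes called in GTWT minus GT, so recovery in the real data may differ. In the GTWT and GT comparison 48% of genes changed by 0.5 and 85% of genes changed by 1 were recovered. Among the unchanged rest of the 11687 genes, 7 were called falsely. These values were 44%, 81% and 3 for GTD272 against GT, and 37%, 90% and 9 for GTWT against GTD272.

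Alternatives were pseudocounts of 0.1 and 0.01, no filter, a mean FPKM of at least 5, quantile normalization, rescaling to a common median, the replicate number as a block, a fit of only the 2 groups compared, the authors' q and leaving out each library. Same-numbered libraries deviated from their group means with correlations of -0.222 to 0.211, and other pairs with -0.165 to 0.233. No pairing by number was seen, but with 4 libraries a group these values cannot exclude a shared batch. Coding sequences came from GENCODE M21 and promoters from RefSeq, both on GRCm38, the assembly of mm10.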

Additional observations from a re-analysis of the deposited data

Results flagged for a closer look

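In 4 of 69 groups of 4 libraries checked for the 23 named F-box genes, 1 library stood apart from the other 3 by Dixon's 95% critical value, where chance gives about 1 in 20. Fbxo30 read 120.1 FPKM in GT replicate 4, against 127.3 to 128.8 in the other GT libraries. Fbxo34 read 407.9 in GTWT replicate 1, against 404.7 to 405.0, a gap small beside its level. Fbxw15 read 199.6 in GTWT replicate 2, against 171.3 to 173.5, and this library is the one that overlaps GTD272. Fbxw21 read 195.9 in GTD272 replicate 1, against 209.6 to 211.3.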

How the results depend on the processing

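Of 21 gene and comparison pairs called, 8 stayed called under every refit and left-out library, the authors' q apart, and 0 reversed. Of 48 uncalled pairs of the named genes, 10 were called under some alternative. In GTWT minus GT, the count of higher F-box genes was 5, and 11 with quantile normalization, 10 with a common median and 3 to 7 on leaving out 1 library. The 7 lower genes were 4 to 7 on leaving out 1 library, and the 3 higher cluster copies were 6 with quantile normalization, 6 with a common median and 2 to 5 on leaving out 1. In GTD272 minus GT, the 4 higher genes were 1 without a filter, 2 with only the 2 groups compared, 7 by the authors' deposited q and 0 to 5 on leaving out 1 library. The 3 lower genes were 1 to 4 on leaving out 1. The 3 higher copies were 0 without a filter, 5 at a mean FPKM of at least 5, 1 with only the 2 groups, 6 by the authors' deposited q and 0 to 4 on leaving out 1. In GTWT minus GTD272, the 2 lower genes were 0 without a filter, 1 with quantile normalization, 1 with a common median, 0 with only the 2 groups and 0 to 2 on leaving out 1. The 1 lower copy was 0 without a filter, 2 at a mean FPKM of at least 5, 0 with quantile normalization, 0 with a common median, 0 with only the 2 groups, 2 by the authors' deposited q and 0 to 2 on leaving out 1. Among all genes in that comparison, 74.7% of the limma calls were lower without rescaling. The share was 56.0% with quantile normalization and 59.7% with a common median.

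For the other lists, the 1 F-box gene with another symbol in GTWT minus GT was 0 to 1 on leaving out 1 library, and 1 against 0 was called in GTWT minus GTD272 by the authors' deposited q. SCF genes were 1 against 0 by the authors' deposited q in GTD272 minus GT, and 0 to 1 on leaving out 1 library in GTWT minus GTD272. The 1 other cullin in GTWT minus GT was 0 with quantile normalization, 0 with a common median, 0 with only the 2 groups, 2 by the authors' deposited q and 0 to 1 on leaving out 1. In GTD272 minus GT, 1 against 0 was called at a mean FPKM of at least 5, with a common median, with only the 2 groups, by the authors' deposited q, and 0 to 1 on leaving out 1. The cause of these changes was not tested.

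Same-numbered samples share a number, and whether they share anything else is not stated. With the replicate number as a block, counts were 6 higher and 5 lower in GTWT minus GT with 4 higher copies and 0 other cullins, 1 higher and 1 lower in GTD272 minus GT with 1 higher copy, and 0 higher and 2 lower in GTWT minus GTD272 with 2 lower copies. The lists of lost calls above leave out this block. In limma with it, Fbxl5 in GTWT minus GT (adjusted p = 0.06495) and Fbxl15 in GTWT minus GTD272 (0.0653) lost their calls. In GTD272 minus GT, Fbxw14 (0.0618), Fbxw28 (0.0563), Fbxo33 (0.05625) and Fbxo40 (0.0566) lost theirs. Fbxw24 passed in GTWT minus GT (0.0476). FPKM gives no read counts, so there is no counting interval, and 4 libraries a group limit the precision.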
